A study of Mus musculus with 16 samples.

Results

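Spp1, Vtn, Igf2, Kit, Lgr5, Slc37a2, Col18a1, Mc4r and Wfikkn1 are 9 of the 20730 genes measured in a study of calcium signals in striatal astrocytes. They were chosen by their measured values: each fell in astrocyte ribosome-bound RNA when the calcium pump hPMCA2w/b was present, and hardly moved in the whole lysate. Those treatment differences therefore describe the choice, and they are given here with standard errors and without tests. The split of each RNA between lysate and precipitate, the partner genes, promoter sequence and genome position are also described, with tests where the design allows. Sequence and position do not depend on the measured values. The split includes the libraries used for the choice, and the partner lists were drawn up with earlier results of these data known.

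The striatum was taken from 8 adult C57BL/6N mice. All 8 carried RiboTag, delivered by an adeno-associated virus (AAV): the ribosomal protein Rpl22 with a hemagglutinin (HA) tag, made in astrocytes. A further AAV gave 4 mice (control) a control protein and the other 4 (PMCA) hPMCA2w/b, a human calcium pump of the plasma membrane that reduces calcium signals. For every mouse, RNA of the cleared lysate (input) and RNA pulled down with the tag (immunoprecipitate, IP) were sequenced, which gave 4 control input, 4 PMCA input, 4 control IP and 4 PMCA IP libraries. Not given in the sources used here was which control protein was used and which promoter drives each virus.

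The 9 genes do not belong to 1 pathway. Spp1 encodes osteopontin and Vtn encodes vitronectin, secreted proteins that cells bind through integrins. Vtn is widely used as a pericyte marker in brain. Igf2 is a growth factor related to insulin that is known in brain from the leptomeninges and the choroid plexus, Col18a1 is a basement membrane collagen, and Wfikkn1 is a secreted protein that binds myostatin and GDF11. Kit, the receptor of stem cell factor, Lgr5, a receptor of R-spondins in Wnt signalling, and Mc4r, a melanocortin receptor, lie in the plasma membrane, whereas Slc37a2 exchanges sugar phosphates across the endoplasmic reticulum membrane.

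The genes lay on 7 chromosomes of the mouse build GRCm38.p6 (the coordinates of mm10). The pair on chromosome 5, Kit (chr5:75574987-75656722) and Spp1 (chr5:104435111-104441053), was 28.8 Mb apart, and the pair on chromosome 10, Col18a1 (chr10:77052178-77166530) and Lgr5 (chr10:115450314-115587780), was 38.3 Mb apart. Vtn was at chr11:78499120-78502325, Igf2 at chr7:142650768-142666816, Slc37a2 at chr9:37229149-37255738 and Wfikkn1 at chr17:25877628-25880858. No pair of them were neighbours.

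Promoter sequence was examined because the 9 genes had been grouped by a shared change. RefSeq windows of 250 bases before the most upstream annotated start were used for 7 of the 9 genes. The 3 printed here belong to the genes with the largest fall (Spp1 and Vtn) and the smallest fall (Kit) in IP. All 3 genes lie on the plus strand of GRCm38.p6, and the windows are chr5:104434861-104435110 (Spp1), chr11:78498870-78499119 (Vtn) and chr5:75574737-75574986 (Kit). Each is written 5′ to 3′ with the start of the gene just after the last base. Capitals mark matches to the TATA box letters TATAAA, to the CCAAT box or to the GC box GGGCGG on either strand, wherever they lie.
Spp1: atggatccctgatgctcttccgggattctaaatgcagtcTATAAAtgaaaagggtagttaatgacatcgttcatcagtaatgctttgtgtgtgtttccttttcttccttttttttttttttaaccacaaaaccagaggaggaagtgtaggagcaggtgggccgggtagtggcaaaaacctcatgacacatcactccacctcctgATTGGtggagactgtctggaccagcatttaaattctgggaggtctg
Vtn: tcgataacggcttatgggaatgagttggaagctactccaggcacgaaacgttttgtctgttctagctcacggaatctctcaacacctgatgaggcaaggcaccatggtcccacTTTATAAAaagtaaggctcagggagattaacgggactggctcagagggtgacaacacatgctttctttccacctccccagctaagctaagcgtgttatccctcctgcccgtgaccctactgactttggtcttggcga
Kit: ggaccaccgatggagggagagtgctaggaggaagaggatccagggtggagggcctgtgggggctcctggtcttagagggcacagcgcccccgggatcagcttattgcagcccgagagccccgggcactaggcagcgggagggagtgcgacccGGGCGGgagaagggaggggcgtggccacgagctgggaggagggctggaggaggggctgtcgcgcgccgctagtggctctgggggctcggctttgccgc

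The windows of Spp1 and Vtn held TATAAA, which is found in 8.85% of the 14659 promoter windows of the same length. It began 211 bases before the start in Spp1 and 135 bases before it in Vtn, where a match on the other strand overlapped it. Over all windows TATAAA peaked at -30 from the start, and neither match lay there. Spp1 also held CCAAT, read on the minus strand as ATTGG 46 bases before the start, a motif present in 35.6% of windows. Kit held GGGCGG, the GC box, 98 bases before the start. That motif was in 49.1% of windows, and Col18a1 held it at 3 places. Slc37a2 held TGAGTCA, a match to the AP-1 motif TGANTCA (5.48% of windows), and no other of the 7 windows did. The E-box CANNTG, in 61.0% of windows, was left in lower case. It had 1 match in Spp1, 2 in Vtn, 2 in Igf2 and 5 in Wfikkn1.

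None of the 5 motifs was found in all 7 windows. GC content ran from 43.6% in Spp1 to 70.8% in Kit, against a median of 57.6% over all windows. Igf2 and Wfikkn1 each held 1 CpG and Kit held 17, against a median of 12. All 7 windows thus held fewer CpG than the upper quartile of 20.

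Between 32334042 and 40851354 reads were counted to genes in an input library and between 46829673 and 58482482 in an IP library. All 10 astrocyte markers examined were higher in IP than in input over the 8 mice, with a median log2 difference of 3.37, and microglial markers were lower in 12 of 12. Projection neuron markers were lower in 10 of 10. Higher in IP were also 8 of 10 interneuron markers (1 lower, median of the list 1.92) and 7 of 7 oligodendrocyte precursor markers (median 0.71). So were 6 of 9 choroid plexus and ependymal markers (3 lower, median 2.18). Of 9 oligodendrocyte markers 5 were higher and 0 lower, and endothelial markers were lower in 12 of 12. Over all 16673 genes tested, 40.4% were called higher in IP and 43.7% lower. Enrichment in IP was thus not limited to astrocyte markers. The tagged gene itself, Rpl22, fell with treatment in both fractions: the IP values were 9.74, 9.92, 9.92 and 9.62 log2 CPM (log2 of reads scaled to library size) in control mice and 8.18, 8.03, 8.22 and 8.01 in PMCA mice, a log2 difference of -1.69 ± 0.089 (SE, n = 4 and 4), and in input the log2 difference was -0.88 ± 0.066 (SE). The pump and the lower Rpl22 level cannot be told apart as the source of a difference between the treatments. In bulk RNA, fewer cells of a type and less RNA per cell cannot be told apart either. The counts behind the 9 genes ran from 23 reads (Mc4r in a PMCA IP library) to 3851 reads (Kit in a control IP library), so Mc4r and Wfikkn1 carry the widest counting error.

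In IP, the 9 genes fell by 0.85 to 2.16 on the log2 scale in PMCA mice (median -1.26), and in input their differences lay between -0.10 and 0.19 (median 0.06). The median over all genes tested was -0.01 in both fractions. In IP, the highest PMCA library was below the lowest control library for each of the 9 genes, an arrangement held by 14.2% of the 15748 genes tested there. In input, none of the 9 was arranged so in either direction, against 4.77% of 16306 genes with all PMCA libraries below and 4.99% with all above. These counts follow from how the genes were chosen.

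**Figure D1:**
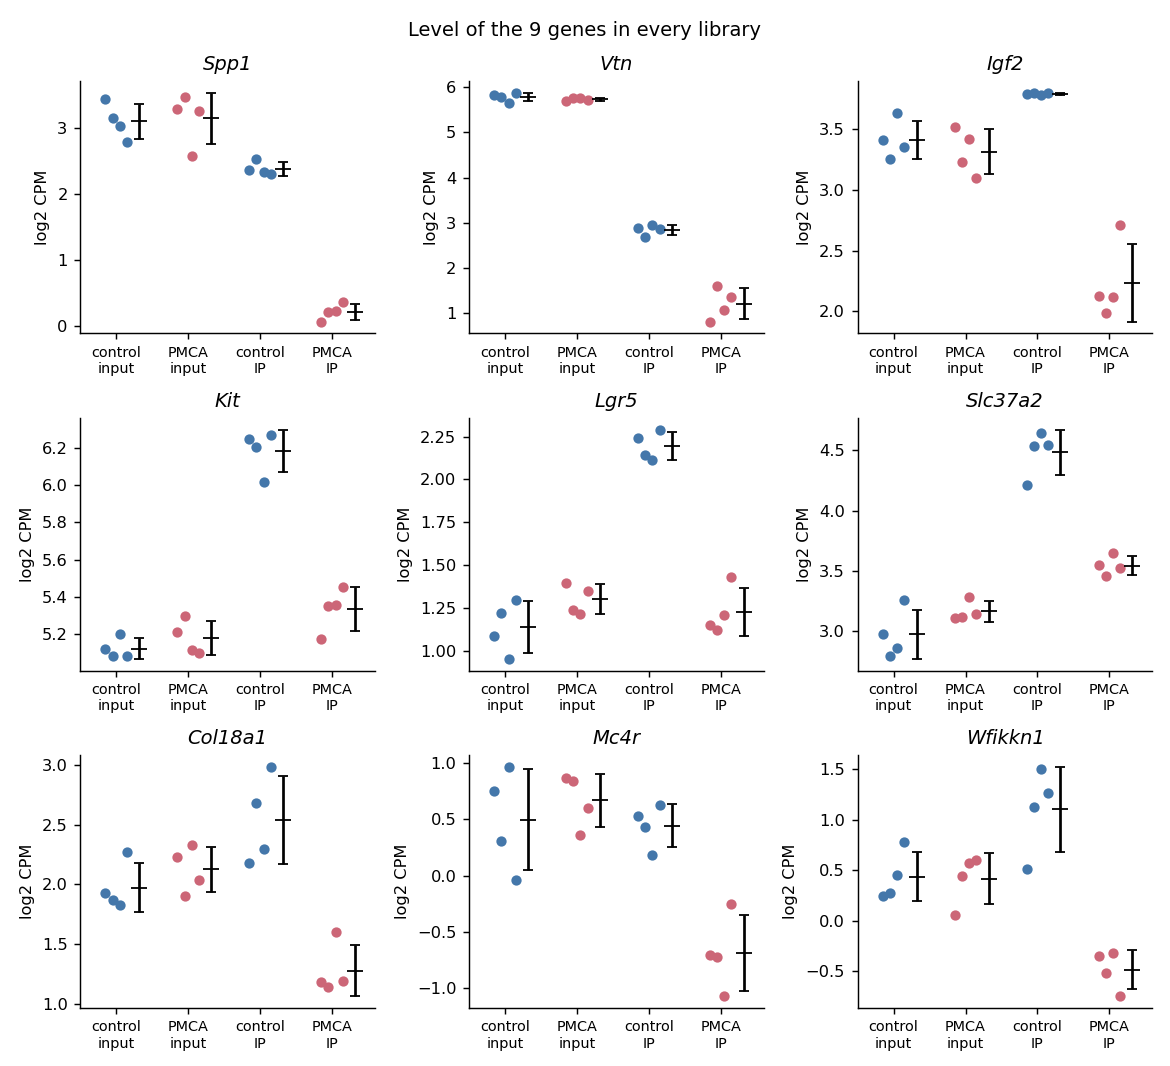
Level of each of the 9 genes in all 16 libraries, in log2 CPM on the vertical axis, with 1 point per library and a bar at the mean of each group of 4 mice. For every gene the 4 PMCA IP points sit below the 4 control IP points, while the input points of the treatments overlap.

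Among the secreted proteins, Spp1 had the largest fall. Its IP values were 2.36, 2.52, 2.33 and 2.30 log2 CPM in control mice and 0.07, 0.22, 0.22 and 0.36 in PMCA mice. The PMCA libraries were all far below the controls, with 1.93 log2 units between the nearest libraries of the groups, and the level was 4.46-fold lower (log2 difference -2.16 ± 0.125, SE). In input the values were 3.43, 3.14, 3.03 and 2.78 in control mice and 3.27, 3.46, 2.58 and 3.26 in PMCA mice, so the lowest and the highest library were both from PMCA mice. The input difference was 0.05 ± 0.18 (SE). PMCA mouse 3, the lowest of the input libraries, weighed on that value: without it the input difference was 0.24.

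Vtn fell 3.13-fold in IP. Control mice had 2.87, 2.69, 2.95 and 2.86 log2 CPM and PMCA mice had 0.80, 1.59, 1.06 and 1.35, a log2 difference of -1.64 ± 0.17 (SE). The PMCA libraries were lower and more spread (SD 0.34 against 0.11). Input values were 5.84, 5.78, 5.65 and 5.87 in control mice and 5.69, 5.77, 5.75 and 5.71 in PMCA mice, and the groups overlapped within a narrow range. In every mouse the CPM level of Vtn was higher in input than in IP.

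Igf2 stood within 0.02 log2 units in the 4 control IP libraries, at 3.79, 3.80, 3.78 and 3.80 log2 CPM. PMCA mice had 2.13, 1.98, 2.12 and 2.71, a level 2.95-fold lower (log2 difference -1.56 ± 0.14, SE), and PMCA mouse 4 was the closest to the controls. Input values were 3.41, 3.26, 3.63 and 3.35 in control mice and 3.52, 3.23, 3.42 and 3.10 in PMCA mice, which overlapped.

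Col18a1 and Wfikkn1 are the remaining secreted proteins. Col18a1 had 2.18, 2.68, 2.30 and 2.99 log2 CPM in control IP libraries and 1.18, 1.14, 1.60 and 1.19 in PMCA IP libraries, 2.40-fold lower (log2 difference -1.26 ± 0.19, SE). The controls varied more than the PMCA mice (SD 0.37 and 0.21), and the groups were 0.58 log2 units apart at their nearest libraries. Wfikkn1 had 0.51, 1.13, 1.502 and 1.27 in control IP libraries and -0.35, -0.52, -0.32 and -0.75 in PMCA IP libraries, which is 33.3% of the control level (log2 difference -1.59 ± 0.23, SE). These rest on 72 to 150 reads in control and 29 to 39 reads in PMCA libraries. In input, Col18a1 ranged from 1.83 to 2.27 in control mice and from 1.90 to 2.33 in PMCA mice, and Wfikkn1 from 0.25 to 0.78 and from 0.06 to 0.60.

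Of the receptors, Kit had the highest read count and the smallest fall of the 9. Its IP values were 6.25, 6.20, 6.02 and 6.27 log2 CPM in control mice and 5.17, 5.35, 5.36 and 5.45 in PMCA mice, 1.80-fold lower (log2 difference -0.85 ± 0.080, SE). Every PMCA library was at least 0.56 log2 units below every control library. In input, Kit stood at 5.12, 5.08, 5.20 and 5.08 in control mice and at 5.21, 5.30, 5.12 and 5.10 in PMCA mice, a difference of 0.06 ± 0.056 (SE).

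Lgr5 had 2.24, 2.14, 2.11 and 2.29 log2 CPM in control IP libraries and 1.15, 1.12, 1.21 and 1.43 in PMCA IP libraries, 1.96-fold lower (log2 difference -0.97 ± 0.12, SE). Mc4r had 0.53, 0.43, 0.18 and 0.63 in control IP libraries and -0.71, -0.72, -1.07 and -0.25 in PMCA IP libraries, 2.19-fold lower (log2 difference -1.13 ± 0.22, SE). Both receptors were lower in each PMCA library, and the groups came within 0.44 log2 units of each other for Mc4r. In input, Lgr5 ranged from 0.95 to 1.30 in control mice and from 1.22 to 1.40 in PMCA mice. Mc4r ranged from -0.04 to 0.97 and from 0.36 to 0.87, the widest input spread of the 9 in control mice (SD 0.45).

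The transporter Slc37a2 had 4.21, 4.54, 4.64 and 4.54 log2 CPM in control IP libraries and 3.55, 3.46, 3.65 and 3.52 in PMCA IP libraries, 1.92-fold lower (log2 difference -0.94 ± 0.099, SE). Its input values, 2.98, 2.80, 2.86 and 3.26 in control mice and 3.11, 3.12, 3.29 and 3.14 in PMCA mice, gave the largest input difference of the 9, 0.19 ± 0.11 (SE), which was opposite in sign to that in IP. In input, the mean of the PMCA mice was higher than that of the control mice for 6 of the 9 genes and lower for 3 (Vtn, Igf2 and Wfikkn1).

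**Figure D2:**
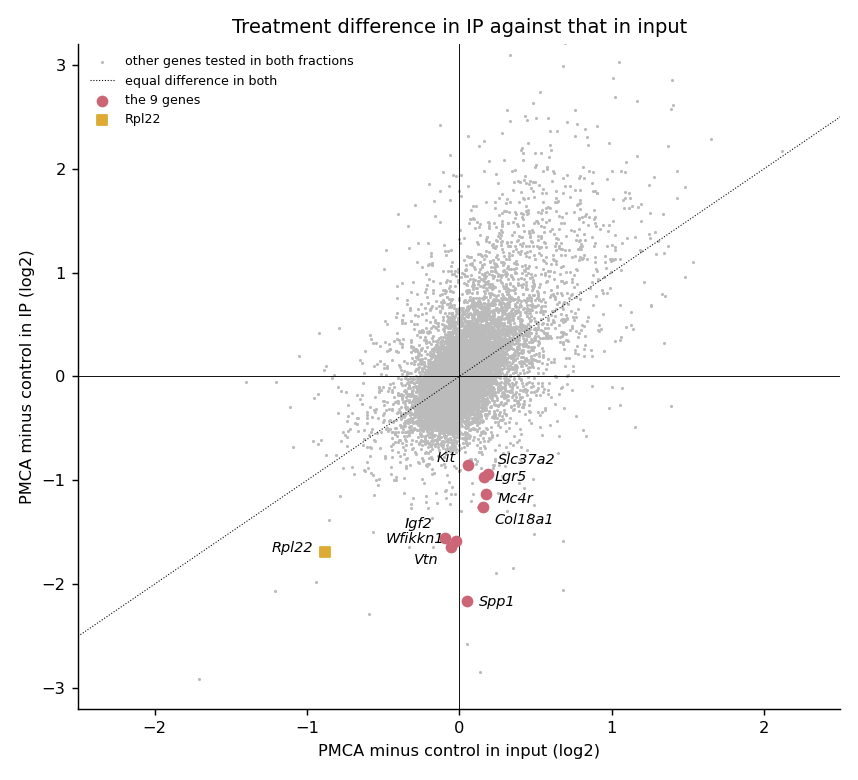
Log2 difference of PMCA from control in input (horizontal axis) and in IP (vertical axis) for 15470 genes tested in both, with the 9 genes named; 3 genes lie outside the axes. The 9 lie near 0 on the horizontal axis and between -0.85 and -2.16 on the vertical axis, because they were picked for that position.

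Leaving out a mouse could not change the sign of the fall in IP, because the PMCA and control IP libraries did not overlap for any of the 9 genes. With each mouse left out in turn, the difference ran from -2.21 to -2.11 for Spp1 and from -0.90 to -0.80 for Kit. The widest such ranges were those of Wfikkn1, -1.78 to -1.45, and of Mc4r, -1.28 to -1.004. In IP, 10.1% of the 15748 genes tested were called lower in PMCA mice and 9.54% higher (limma, Benjamini-Hochberg adjusted p under 0.05), whereas in input 0.0797% of 16306 were called lower and 0.362% higher.

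Over all genes tested, 69 were called lower in IP by at least the fall of Kit. Of these, 29 had an input difference no larger than the 0.19 of Slc37a2, and the 9 genes were among the 29. Within the 29, the gene nearest to Kit in its fall was Nefh (-0.86 in IP and -0.12 in input), a neurofilament subunit, which was not chosen. The 9 were thus not the whole set of genes with that pattern.

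The split of each RNA between fractions was measured by the mean of the IP minus input differences in control and PMCA mice. With 4 libraries in each group and equal variances, errors in this mean are unrelated to those in the treatment differences. The mean still includes the PMCA IP libraries used for the choice, so a fall there lowers it. By that measure, 7 of the 9 genes differed between fractions (limma, all 16 libraries), where 84.1% of the 16673 genes tested did so, 40.4% higher and 43.7% lower in IP. Slc37a2, Kit and Lgr5 were higher in IP, by 0.94 ± 0.073 (SE, adjusted p 1.68e-09), 0.61 ± 0.049 (adjusted p 2.8e-09) and 0.49 ± 0.081 (adjusted p 2.39e-05). Vtn, Spp1, Mc4r and Igf2 were lower in IP, with log2 differences of -3.74 ± 0.087 (adjusted p 1.31e-16), -1.82 ± 0.12 (adjusted p 1.26e-10), -0.70 ± 0.16 (adjusted p 0.000701) and -0.35 ± 0.095 (adjusted p 0.00258). Col18a1 (-0.14 ± 0.12, adjusted p 0.28) and Wfikkn1 (-0.12 ± 0.15, adjusted p 0.471) did not pass the test. In control mice alone, the mean difference was -2.94 for Vtn, -0.72 for Spp1, -0.05 for Mc4r, 0.38 for Igf2, 0.56 for Col18a1 and 0.67 for Wfikkn1. In PMCA mice it was -4.53 for Vtn, -2.92 for Spp1, -1.36 for Mc4r and -1.08 for Igf2. Vtn was thus far below 0 in both treatments. The other negative means, that of Spp1 included, rested mostly on the PMCA mice, whose IP libraries were used for the choice. The calls of Mc4r and Igf2 as lower in IP, which count among the 7, therefore do not stand apart from the choice. When libraries were scaled by total reads, all fraction differences shifted by a median of -0.29, and Col18a1 (-0.43, adjusted p 0.00335) and Wfikkn1 (-0.41, adjusted p 0.0189) also passed as lower in IP.

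Within each mouse, the IP level minus the input level of each RNA was lower in all PMCA mice than in all control mice for each of the 9, as for 6.74% of the 16673 genes tested, and the choice also shaped this count. For Spp1 it was -1.07, -0.61, -0.70 and -0.49 in control mice and -3.21, -3.24, -2.35 and -2.89 in PMCA mice, so the mean input level in CPM was 1.64-fold and 7.59-fold the IP level. For Vtn it was -2.96, -3.09, -2.70 and -3.01 in control mice and -4.89, -4.18, -4.69 and -4.36 in PMCA mice, 7.68-fold and 23.1-fold. Both RNAs were thus higher in the lysate in every mouse of either treatment.

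For Igf2 it was 0.39, 0.54, 0.15 and 0.45 in control mice and -1.39, -1.24, -1.30 and -0.39 in PMCA mice. For Kit it was 1.12, 1.12, 0.82 and 1.18 in control mice and -0.04, 0.06, 0.24 and 0.35 in PMCA mice. The IP level of Igf2 was thus above the input level in each control mouse and below it in each PMCA mouse, while that of Kit was above the input level in 7 of 8 mice. In control mice the mean IP level was above the mean input level for 6 of the 9 genes, and in PMCA mice for 2 (Kit and Slc37a2).

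**Figure D3:**
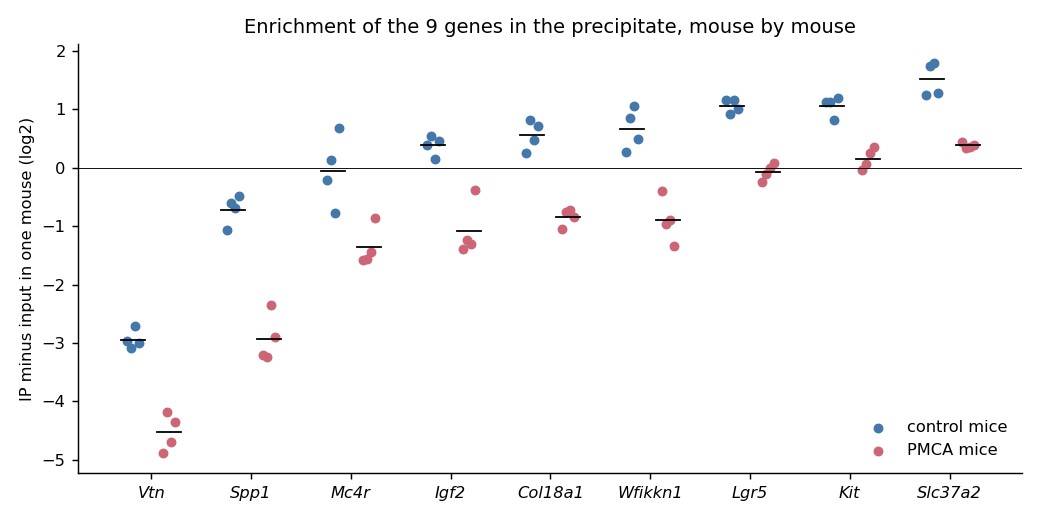
IP minus input log2 CPM within each mouse (vertical axis) for the 9 genes, with 4 control and 4 PMCA mice as points and a bar at each mean. In each gene the PMCA mice lie below the control mice; Vtn lies furthest below 0, with control mice between -3.09 and -2.70 and PMCA mice between -4.89 and -4.18.

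The effect in IP minus the effect in input was -2.21 ± 0.23 (SE) for Spp1, -1.59 ± 0.17 for Vtn, -1.57 ± 0.30 for Wfikkn1, -1.46 ± 0.19 for Igf2 and -1.41 ± 0.24 for Col18a1. It was -1.30 ± 0.33 for Mc4r, -1.13 ± 0.16 for Lgr5, -1.13 ± 0.15 for Slc37a2 and -0.91 ± 0.098 for Kit. Spp1 thus had the largest difference between the effects and Kit the smallest, as for their falls in IP.

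Within a group of mice, the 9 genes varied together in some pairs and not in others. Over 8 mice, after removing each group mean, Pearson's r between pairs in IP ran from -0.611 (Kit and Wfikkn1) to 0.918 (Slc37a2 and Wfikkn1) with a median of 0.167, and 21 of 36 pairs were positive. In input the range was -0.718 to 0.816 with a median of -0.05. The pairs share the libraries of the same 8 mice, so these values only describe them.

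Over all 16 libraries, with the mean of each fraction removed, the genes most like Spp1 were Kit (r 0.955), the neurofilament gene Nefh (r 0.955) and Cse1l (r 0.949), a nuclear export factor. Those most like Vtn were Rnf128 (r 0.951), a ubiquitin ligase, Cse1l (r 0.950) and Gpi1 (r 0.946), a glycolytic enzyme. Those most like Igf2 were Ythdf2 (r 0.957), a reader of methylated RNA, Gps1 (r 0.955) and Glyr1 (r 0.950), and those most like Kit were Spp1, Qpct (r 0.949) and Rnf128 (r 0.949). Several of these had much smaller differences in IP, such as Glyr1 (-0.20) and Ythdf2 (-0.26). The treatment difference, by which the 9 genes were chosen, is left in these values of r: with group means removed, r between Spp1 and Kit was 0.58 in IP and 0.481 in input over 8 mice.

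Partner genes of the 9 were taken from lists of receptors, ligands, binding proteins and relatives, 84 genes in all. In IP, 80 of them were tested, and 15 were called higher and 4 lower, where 9.54% and 10.1% of all 15748 genes were. In input 1 was called higher and 1 lower of 80, where 0.362% and 0.0797% of all 16306 genes were. More of the partners were thus called higher than lower in IP, opposite to the direction for which the 9 genes were picked. The lists were chosen with earlier results of these data known, so these counts only describe them. Counts of single lists below, of partners and of cell type markers, stand against the same shares. For the difference of effects between fractions, 3 of 81 partners were called lower (Igfbp4, Igf2r and Lama1) and none higher (8 and 9 at an unadjusted p under 0.05 in limma), where 1.06% of all 16673 genes were called lower and 0.972% higher.

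**Figure D4:**
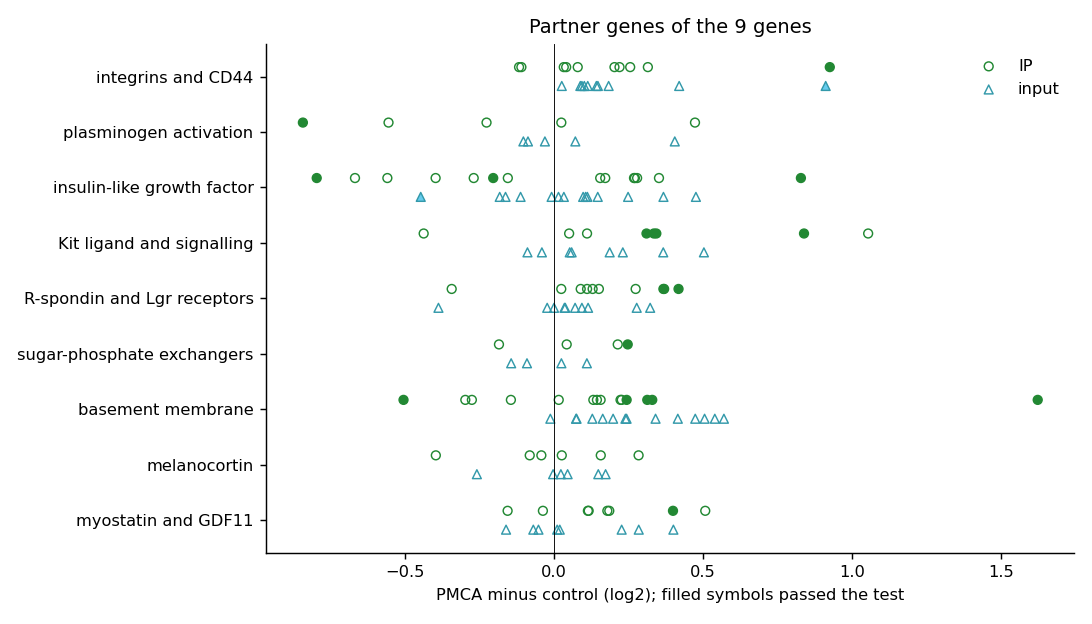
PMCA minus control log2 difference (horizontal axis) of each partner gene in IP and in input, by list on the vertical axis, with filled symbols for genes that passed the test. In IP, 15 of the filled symbols lie above 0 and 4 below it.

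Among 10 tested receptors of osteopontin and vitronectin, the integrin subunit Itga4 was called, and it rose in both fractions: IP 0.92 ± 0.16 (SE, adjusted p 0.00546) and input 0.91 ± 0.13 (adjusted p 0.0223). The vitronectin receptor subunits Itgav (0.08 ± 0.084, adjusted p 0.541) and Itgb3 (0.04 ± 0.30, adjusted p 0.939) and the osteopontin receptor Cd44 (0.26 ± 0.19, adjusted p 0.36) did not pass in IP. Of 5 genes of plasminogen activation, the urokinase receptor Plaur, which also binds vitronectin, fell in IP, with a log2 difference of -0.84 ± 0.24 (adjusted p 0.0325).

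In the insulin-like growth factor list, 1 of 14 tested genes rose in IP and 2 fell. The binding protein Igfbp5 rose by 0.83 ± 0.11 (adjusted p 0.00288). The binding protein Igfbp4 differed by -0.80 ± 0.080 (adjusted p 0.001) and Igf2r, the receptor that clears Igf2, by -0.20 ± 0.062 (adjusted p 0.043). In input, Igfbp2 fell (-0.45 ± 0.075, adjusted p 0.0403). Igf1 (-0.40 ± 0.18, adjusted p 0.15) and its receptor Igf1r (0.15 ± 0.073, adjusted p 0.161) did not pass in IP, and H19, the imprinted neighbour of Igf2, had too few reads to be tested. The binding proteins of the list thus moved both ways.

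Of 8 genes around Kit, 4 rose in IP and none fell (0 lower by limma at an unadjusted p under 0.05). They were the Src family kinase Lyn (0.84 ± 0.23, adjusted p 0.0324), the ubiquitin ligase Cbl (0.34 ± 0.057, adjusted p 0.00474), the adaptor Gab2 (0.33 ± 0.060, adjusted p 0.00637) and the adaptor Sh2b3 (0.31 ± 0.088, adjusted p 0.035). The ligand Kitl had a log2 difference of -0.44 ± 0.20 (adjusted p 0.149). Lyn is also a microglial gene, and 5 of 12 microglial markers were called higher in IP, with summed levels of 67.3 to 86.7 CPM in control mice and 86.0 to 139 CPM in PMCA mice. Their part in the result was not tested.

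Of 11 genes around Lgr5, 3 rose in IP. These were the Wnt co-receptors Lrp5 (0.42 ± 0.12, adjusted p 0.0396) and Lrp6 (0.37 ± 0.089, adjusted p 0.0189), and Axin2, a Wnt target and inhibitor (0.37 ± 0.077, adjusted p 0.0115). The relative Lgr4 did not pass (0.09 ± 0.097, adjusted p 0.554). Among 4 genes related to Slc37a2, Slc37a3 rose (0.25 ± 0.067, adjusted p 0.0299) and Slc37a4 did not pass (-0.19 ± 0.083, adjusted p 0.141).

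Of 14 basement membrane genes, 4 rose and 1 fell in IP. Col15a1, the closest relative of Col18a1, rose by 1.62 ± 0.34 (adjusted p 0.0115), Nid2 by 0.33 ± 0.094 (adjusted p 0.0348), Lama5 by 0.31 ± 0.077 (adjusted p 0.021) and Lamc1 by 0.24 ± 0.074 (adjusted p 0.0447), whereas Lamb1 differed by -0.51 ± 0.14 (adjusted p 0.0314). Col18a1 and Col15a1 therefore had opposite signs in IP, and Col15a1 had few reads there (mean -1.74 log2 CPM in control and -0.12 in PMCA mice). Of 8 tested myostatin and GDF11 genes, Gdf11 rose (0.40 ± 0.095, adjusted p 0.0183) and Wfikkn2 did not pass (0.12 ± 0.20, adjusted p 0.711). None of 6 melanocortin genes passed the limma test in IP or in input, with 0 at an unadjusted p under 0.05 in either, and Mrap2, an accessory protein of Mc4r, was at -0.08 ± 0.13 (SE) in IP.

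Calls among the partners moved with single mice. The 19 calls in IP became 7 without control mouse 2, 9 without PMCA mouse 2, 10 without PMCA mouse 3, 11 without PMCA mouse 1 and 12 without control mouse 3. Axin2, Cbl, Gab2, Igfbp4, Igfbp5 and Itga4, 6 of the 19, kept their IP call in all 16 alternatives, and Col15a1 kept it without each mouse in turn. Neither input call was kept without each mouse.

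Markers of other cell types were set beside the 9 genes. Some neuronal markers fell in IP: 7 of 10 striatal interneuron markers were called lower (median -0.40), and so were 7 of 9 general neuron markers (median -0.52). In input, 0 of 10 and 0 of 9 were called by limma. At an unadjusted p under 0.05 in input, 2 interneuron markers were higher and 0 lower, whereas 0 general neuron markers were higher and 2 lower. The summed interneuron markers were at 1310 to 1361 CPM in control IP libraries and 1065 to 1190 CPM in PMCA IP libraries, and 267 to 301 CPM and 268 to 303 CPM in input. Of 10 projection neuron markers, 1 was called lower in IP, and the median of the list was -0.11. Astrocyte markers moved the other way: 4 of 10 were called higher in IP (Aldh1l1, Sox9, Kcnj10 and Atp1b2, median of the list 0.42) and 2 of 10 in input (Slc1a2 and Slc1a3, median of the list 0.20). The part of these cell types in the fall of the 9 genes was not tested.

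Among vessel markers, 2 of 10 mural markers were called higher in IP and 1 lower. The 2 were Pdgfrb (0.43 ± 0.0645, adjusted p 0.00358) and Myh11 (0.97 ± 0.24, adjusted p 0.02), and the 1 was Rgs5 (-0.66 ± 0.17, adjusted p 0.0248). Among those that did not pass were Kcnj8 (-1.12 ± 0.39, adjusted p 0.0673), Abcc9 (-0.55 ± 0.45, adjusted p 0.425) and Notch3 (0.30 ± 0.13, adjusted p 0.119). The summed level of the list was 184 to 213 CPM in control IP libraries and 208 to 264 CPM in PMCA IP libraries. Notch3 and Pdgfrb, which were higher in IP than in input (2.77 and 1.63 on the log2 scale), had the highest CPM of the list, whereas Rgs5, Kcnj8 and Abcc9 were lower in IP than in input (-2.42, -3.75 and -2.55). The part of mural cells in the fall of Vtn was not tested. Endothelial markers were called higher in 4 of 11 and leptomeningeal fibroblast markers in 3 of 5, from 17.5 to 19.9 CPM in control and 22.7 to 34.1 CPM in PMCA IP libraries for the latter. Of 9 choroid plexus and ependymal markers, none was called by limma in IP (0 higher and 3 lower at an unadjusted p under 0.05), and their summed level was 160 to 205 CPM in control and 133 to 199 CPM in PMCA mice. Foxj1 made up most of that sum. Ttr (-2.28 ± 0.74, adjusted p 0.0543) and Folr1 (-0.72 ± 0.24, adjusted p 0.058) had larger differences in IP than Kl (-0.06) and Clic6 (-0.05). Ttr had few reads there (mean -1.22 log2 CPM in control mice). The part of these cells in the fall of Igf2 was not tested. For mast cells, where Kit is also known, Hdc was the 1 marker tested, at 0.01 ± 0.13 (SE) in IP. Hdc was higher in IP than in input (2.59 on the log2 scale), whereas Cma1 and Tpsb2 were at 0 reads in all control IP libraries. These markers therefore say little about mast cells.

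Genes next to the 9 were read as a check on the region. Tmem199, 4730 bases from Vtn, fell in IP by 0.35 ± 0.074 (SE, adjusted p 0.012), while Sarm1 on the other side of Vtn did not pass (0.13 ± 0.080, adjusted p 0.267). Slc19a1 beside Col18a1 (-0.16 ± 0.096, adjusted p 0.258) and Rab40c beside Wfikkn1 (0.18 ± 0.15, adjusted p 0.405) did not pass either. Igf2os overlaps Igf2 over 7137 bases and had too few reads to be tested. A930009A15Rik, which lies inside Lgr5, was at 1.32 ± 0.52 (adjusted p 0.0992) in IP. Strand use in counting was not given in the sources used here, so reads of overlapping genes on opposite strands may be mixed in the values of Igf2 and Lgr5.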

How the data were processed

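RNA was measured in 16 libraries, input and IP of 8 mice. Reads were processed with STAR, HTSeq, edgeR and limma on mm10, per the submitters' processing notes; versions, annotation and strand setting were not given in the sources used here. Values are log2 CPM of 20730 genes a library, as the authors deposited them. Undoing the log2 scale and the mean prior count of 0.25 gave whole reads for 100% of values (tolerance 0.001, largest deviation 3e-08), and thus library totals and the authors' scaling factors (1.10 to 1.12 in input, 0.891 to 0.918 in IP).

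From the deposited log2 values, limma 3.58.1 in R 4.3.3 was fitted to all genes that reached 10 reads, at the median library size, in 4 or more libraries and 15 reads in all: the IP libraries, the input libraries, and all 16 for fraction and the difference of effects. Tests were two-sided, with Benjamini-Hochberg adjustment over all genes tested and a threshold of 0.05. Input and IP of a mouse are linked by the labels, and each fit within a fraction holds 1 library per mouse. The main fits over all 16 libraries had no term for mouse, so input and IP of a mouse were treated as independent. Mouse entered as a block in an alternative. The fit was tested on simulated data. The members and lists were chosen with earlier results of these data known.

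Alternatives were other scaling, prior count 2, no filter, voom weights, blocks for mouse number set, Xist expression and mouse, and leaving out each mouse. The title and the source name of control mouse 4 give different mouse numbers, so its set was tried both ways. Named were the 9 genes, up to 4 called genes and the direct partners in each list, and the 3 genes most like Spp1, Vtn, Igf2 and Kit; 1 partner is not reported here. Genes next to the 9 and single marker genes were named after their values were seen. Positions and sequences are from RefSeq, GRCm38.p6. Counting intervals are not given. SD is over the mice of a group, and SE is from the limma fit with its moderated variance.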

Additional observations from a re-analysis of the deposited data

Results flagged for a closer look

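Col18a1 in the IP library of PMCA mouse 3 stood apart from the other mice of its group, at 1.60 log2 CPM against 1.14 to 1.19 in the other three, so that the gap was 0.883 of the range of the group. It was the 1 such case among the 36 groups of 4 libraries examined for the 9 genes, and chance gives about 1 in 20. The value still lay below all 4 control IP libraries.

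For 3 partner genes the effect of treatment differed between IP and input (limma, all 16 libraries), where 1.06% of the 16673 genes tested were called lower and 0.972% higher. Igfbp4 had an effect in IP minus that in input of -0.61 (adjusted p 0.0125), with lower values in PMCA mice in both fractions. Igf2r had -0.32 (adjusted p 0.0414) and the laminin subunit Lama1 had -0.71 (adjusted p 0.0243), each with a negative difference in IP and a positive one in input. None of the 3 calls was kept without each mouse in turn: Igfbp4 was lost without control mouse 2, PMCA mouse 1 or PMCA mouse 2 (highest adjusted p 0.0693), and Igf2r and Lama1 were lost without any of 6 mice, all but control mouse 4 and PMCA mouse 4.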

How the results depend on the processing

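The sign of the fall in IP, of the difference of effects and of the fraction difference was kept for all 9 genes in every alternative run. For the fall and the difference of effects, leaving out a mouse could not change the sign, because the chosen genes had no overlap between the treatments. Input differences of Spp1, Mc4r and Wfikkn1 crossed 0 in some, such as -0.06 for Spp1 in the lowest. With mouse as a replicate block, 466 genes in place of 339 were called for the difference of effects, 14179 in place of 14028 for fraction, and the number of the 9 genes called was again 7. With the mouse number set as a block and control 4 moved, calls went from 3088 to 1699 in IP, from 72 to 32 in input, from 339 to 99 for the difference of effects, and from 2 to 0 among partner genes in input. With the set as labelled in the titles, the last 3 were 868, 612 and 10. Xist expression as a block gave 786 calls in input and 11 among partners in input, and no filter gave 43 in input. Leaving out a mouse gave 1685 to 3573 calls in IP, 4 to 1356 in input (1356 without control 4), 23 to 456 for the difference of effects, 7 to 28 among partners in IP (28 without PMCA 4) and 0 to 18 in input. The cause was not tested. Low read counts limit Mc4r and Wfikkn1 most.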

Other observations

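Of the 29 genes that were called lower in IP by at least the fall of Kit and had an input difference of at most 0.19, 20 were not among the 9, and those named here were chosen after their values were seen. The largest falls of all 29 were those of Sytl1 (-2.85 ± 0.42 SE in IP, 0.13 ± 0.48 in input), which encodes a synaptotagmin-like protein, and Fam187a (-2.58 ± 0.41 in IP, 0.05 ± 0.39 in input). Pmaip1, which encodes the pro-apoptotic protein Noxa, was at -1.64 ± 0.13 in IP and -0.18 ± 0.23 in input. Among secreted or matrix proteins, the glypican Gpc3 was at -1.22 ± 0.20 in IP and the BMP antagonist Grem1 at -1.14 ± 0.25.

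Genes known from neurons were also among the 20. Pthlh, a marker of striatal interneurons, was at -1.01 ± 0.12 in IP and -0.07 ± 0.13 in input, and the neurofilament subunit Nefh at -0.86 ± 0.088 and -0.12 ± 0.073.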
